A study of Mus musculus with 18 samples.

Results

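Gata6, Afp, Ttr, Apoa1 and Amn, 5 genes that mark the visceral endoderm, were followed in differentiating mouse embryonic stem cells (ESCs) with and without Zeb2. They were picked by symbol from a deposited table of 10965 genes and all 5 were found. At d6 of neural differentiation 4 of the 5 were lower in Zeb2 KO than in control (Ctrl) cells, Afp most, while Amn did not pass the test. Of all genes 34.3% were called lower in this comparison. Gata6, Afp and Ttr are in the table only through their level in Ctrl cells at d6, so the count cannot be read as support. Before d6 no gene of the 5 passed 4.36 TPM in any library, and Gata6 in Ctrl cells at d4 was the clearest early level.

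RNA was sequenced from Ctrl ESCs (genotype Zeb2 fl/fl) and from Zeb2 KO ESCs (Zeb2 -/-), both given the strain CD1. Libraries were made at d0, in 2i + LIF without feeder cells, which holds ESCs in the ground state, at d4, after culture as embryoid bodies (EBs) in medium with 15% serum, and at d6, when the EBs had been kept since d4 in N2B27 that held retinoic acid at 500 nM. There were 6 groups of 3 libraries, 18 in all. Zeb2 is a zinc-finger transcription factor, and the comparison asks which genes need it when ESCs leave the ground state. By the methods, floxed control lines were derived from CD1 mice and KO lines were made from them by transfection of Cre, which matches the labels, while KO lines of a later derivation had a mixed background. Which of the CD1 lines gave the libraries is not given. The 3 libraries of a group come from independent experiments by the authors' account, and the tests below measure the spread between them.

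The visceral endoderm is the extraembryonic epithelium that surrounds the epiblast of the early mouse embryo and arises from the primitive endoderm. It takes up maternal nutrients through apical receptors and secretes serum proteins, much as the fetal liver does later, and it also forms as an outer layer of EBs. Gata6 is a zinc-finger transcription factor that sets up the primitive endoderm. Afp (alpha-fetoprotein), Ttr (transthyretin, which carries thyroid hormone and, bound to Rbp4, retinol) and Apoa1 (the main protein of high-density lipoprotein) are secreted proteins. Amn (amnionless) is a membrane protein that brings cubilin, the product of Cubn, to the apical surface for uptake. None of the 5 is limited to this tissue: liver, gut, kidney or heart cells also express 1 or more of them, and all libraries are of whole cultures, in which fewer cells of a type and less RNA per cell cannot be told apart.

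The promoters of 3 of the 5 genes, Afp, Apoa1 and Amn, were matched by symbol in RefSeq (GRCm38.p6), and the other two, of Gata6 and Ttr, were not analysed here. The 200 bases from 250 to 51 bases before the RefSeq start of each are shown. Afp and Apoa1 were lower in KO than in Ctrl cells at d6, and Amn did not pass the test. Capitals mark CACCT or CACCTG, the short site and the E-box that Zeb2 is known to bind:
Afp, chr5:90490464-90490663, plus strand: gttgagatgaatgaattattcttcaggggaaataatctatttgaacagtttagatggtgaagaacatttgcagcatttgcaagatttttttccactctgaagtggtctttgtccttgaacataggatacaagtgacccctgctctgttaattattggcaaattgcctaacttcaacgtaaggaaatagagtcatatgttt
Apoa1, chr9:46228380-46228579, plus strand: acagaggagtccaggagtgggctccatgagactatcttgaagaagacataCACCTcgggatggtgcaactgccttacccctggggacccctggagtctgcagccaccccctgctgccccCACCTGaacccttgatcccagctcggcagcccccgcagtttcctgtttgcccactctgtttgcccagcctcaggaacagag
Amn, chr12:111270846-111271045, plus strand: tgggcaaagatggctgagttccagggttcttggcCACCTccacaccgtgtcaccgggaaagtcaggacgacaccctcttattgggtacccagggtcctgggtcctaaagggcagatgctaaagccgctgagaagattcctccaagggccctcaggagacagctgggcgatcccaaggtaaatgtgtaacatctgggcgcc

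On both strands, the Afp window held no CACCT and so has no capitals. The Apoa1 window held 2 CACCT, 200 and 131 bases before the start, of which the second is part of a CACCTG. The Amn window held 1 CACCT, 216 bases before the start. Of 32851 mouse promoters, 39.5% held CACCT in the same window and 14.4% held CACCTG, which contains it. The letters AGATAA and TGATAA, which GATA factors bind, were in none of the 3 windows and in 8.4% and 6.7% of all promoters. Other forms of the GATA site, such as those that end in G, were not searched and may be present. The matches are letters only, and whether a factor binds them was not tested.

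By GENCODE M21 (GRCm38) Gata6 (ENSMUSG00000005836) lies on chromosome 18 from 11052064 to 11085635, Afp (ENSMUSG00000054932) on chromosome 5 from 90490737 to 90508907, and Ttr (ENSMUSG00000061808) on chromosome 18 from 20665280 to 20674321. Apoa1 (ENSMUSG00000032083) lies on chromosome 9 from 46228580 to 46230466 and Amn (ENSMUSG00000021278) on chromosome 12 from 111271095 to 111276426. All 5 are protein-coding genes on the plus strand, and reads were counted over each gene as a whole.

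Values are TPM, reads scaled by gene length and by library, which can be compared between genes. Each TPM could be turned back into whole reads, with 1 read added to every gene, so a gene without reads is listed at the worth of 1 read, not at 0. The reads numbered 9622622 to 15617675 per library (median 12131165). Zeb2 itself had 730 to 949 reads in the Ctrl libraries at d6 (7.66 ± 0.138 TPM, SD, n = 3) and 71 to 84 in the KO libraries (0.681 ± 0.0763 TPM), and the KO libraries were below the Ctrl libraries on every day. Differences were tested with limma on log2(TPM + 1) over all genes, and a gene was called when its p, after Benjamini-Hochberg adjustment, was below 0.01. By that rule 27.0% of all genes were called between KO and Ctrl at d0, 45.5% at d4 and 52.3% at d6. The median difference of all genes was -0.16 at d4 and -0.14 at d6, which rescaling by median ratios brought to 0.0015 and 0.014. Relative to the median at d6, the differences of the 5 genes given below become -2.16 for Gata6, -3.07 for Afp, -2.05 for Ttr, -2.49 for Apoa1 and -0.20 for Amn.

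The authors kept genes that reached 5 TPM in at least 3 samples. Gata6 and Afp reached it in the 3 Ctrl libraries at d6 and in no other, Ttr in these 3 and in 1 KO library at d6, and Apoa1 and Amn in all 6 libraries at d6. Gata6, Afp and Ttr are thus in the table through the group where they were highest. No gene of the 5 reached 5 TPM before d6. The share of the 5 genes that differed, or that rose by d6 in Ctrl or KO cells, cannot be read as support. The same holds for some of the other genes listed below.

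Gata6, the transcription factor of the set, rose first and in steps in Ctrl cells. At d0 it stood at 0.972, 0.534 and 0.397 TPM in the 3 Ctrl libraries, from 12, 5 and 3 reads, and at 0.559, 0.149 and 0.330 TPM in the 3 KO libraries, from 5, 1 and 2 reads. At d4 it had reached 2.69, 4.18 and 3.05 TPM in Ctrl cells and 0.950, 0.886 and 0.767 TPM in KO cells. At d6 it measured 18.3, 19.1 and 20.2 TPM in Ctrl cells and 3.55, 3.68 and 2.25 TPM in KO cells. The genotypes overlapped at d0, and at d4 and d6 every KO library was below every Ctrl library, as for 45.7% of all genes at d4 and 41.1% at d6. The log2 difference between KO and Ctrl was -0.28 at d0 (adjusted p = 0.256), -1.19 at d4 (SE 0.18, adjusted p = 4.73e-05) and -2.30 at d6 (SE 0.18, adjusted p = 1.99e-08). The KO libraries at d6 covered the range of 2.25 to 3.68 TPM, which overlaps that of the Ctrl libraries at d4, 2.69 to 4.18 TPM.

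Afp, a fetal serum protein, was close to silent until d4 in both genotypes and then parted most. No library of d0 or d4 had more than 5 reads, and the levels lay between 0.0639 and 0.472 TPM. At d6 the Ctrl libraries held 21.6, 14.4 and 38.6 TPM, from 258, 231 and 590 reads, and the KO libraries 1.49, 1.80 and 1.48 TPM, from 20, 27 and 21 reads. The KO libraries were close together and far below the lowest Ctrl library, while the Ctrl libraries spread by 2.69-fold. The mean of Ctrl was 15.6 times that of KO, with a log2 difference of -3.21 (SE 0.24, adjusted p = 9.83e-09). At d0 and d4 the differences were 0.06 and 0.12 (adjusted p = 0.884 and 0.682) and the genotypes overlapped.

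Ttr, the carrier of thyroid hormone and of the retinol-binding protein, had no read in any of the 6 libraries at d0. At d4 the Ctrl libraries had 0, 0 and 1 read (0.202, 0.219 and 0.431 TPM) and the KO libraries 2, 3 and 5 reads (0.830, 0.929 and 1.72 TPM). At d6 Ctrl cells held 24.6, 19.0 and 29.5 TPM, from 80, 83 and 123 reads, and KO cells 3.10, 6.81 and 4.18 TPM, from 11, 28 and 16 reads. Against a floor of 3 reads over the group at d0, the mean at d6 was at least 106-fold higher in Ctrl and at least 19.4-fold higher in KO cells. The genotypes did not overlap at d4, where KO was above Ctrl, as for 20.0% of all genes, or at d6, where KO was below. The log2 difference was 0.73 at d4 (SE 0.22, adjusted p = 0.00919) and -2.19 at d6 (SE 0.22, adjusted p = 3.1e-07). The difference at d4 rests on 10 reads in KO and 1 read in Ctrl cells. It was no longer called when any of 13 single libraries was left out, which are all but Ctrl d6 replicates 2 and 3, KO d6 replicates 1 and 2 and KO d4 replicate 1. It then ranged from 0.55 to 0.84, with an adjusted p of up to 0.0531 without KO d4 replicate 3, and it was also not called with a pseudocount of 5, with the d4 groups alone or by voom (adjusted p = 0.153, 0.0235 and 0.0106).

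Apoa1, the main protein of high-density lipoprotein, reached the highest level of the set. Up to d4 it had 0 to 8 reads in a library, with 0.150, 0.489 and 0.321 TPM in the Ctrl libraries and 0.206, 0.864 and 1.92 TPM in the KO libraries at d4. At d6 the Ctrl libraries held 66.6, 55.2 and 112 TPM and the KO libraries 9.24, 18.7 and 7.87 TPM. Every KO library at d6 was below every Ctrl library, and the means differed by 6.52-fold (log2 difference -2.63, SE 0.33, adjusted p = 3.54e-06). The differences of 0.05 at d0 and 0.51 at d4 were not called (adjusted p = 0.927 and 0.192), and the libraries of the genotypes overlapped on both days.

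Amn, the partner of cubilin at the apical membrane, took another course. It stood at 0.564 to 0.844 TPM in Ctrl and 0.706 to 1.24 TPM in KO cells at d0, and at d4 the libraries held 1.60, 1.27 and 1.72 TPM in Ctrl and 2.60, 1.34 and 4.36 TPM in KO. At d6 Amn measured 8.81, 13.1 and 16.5 TPM in the Ctrl libraries, from 39, 79 and 95 reads, and 5.61, 12.2 and 12.6 TPM in the KO libraries, from 29, 71 and 70 reads. The genotypes overlapped on all 3 days, and the KO mean was 79.3% of the Ctrl mean at d6. The log2 differences of 0.26, 0.50 and -0.34 at d0, d4 and d6 were not called (adjusted p = 0.532, 0.169 and 0.343). The 95% interval at d6, -0.98 to 0.30, spans lower as well as higher levels in KO cells. Without KO d6 replicate 1, the lowest of the group, the difference at d6 was 2.00e-04.

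**Figure D1:**
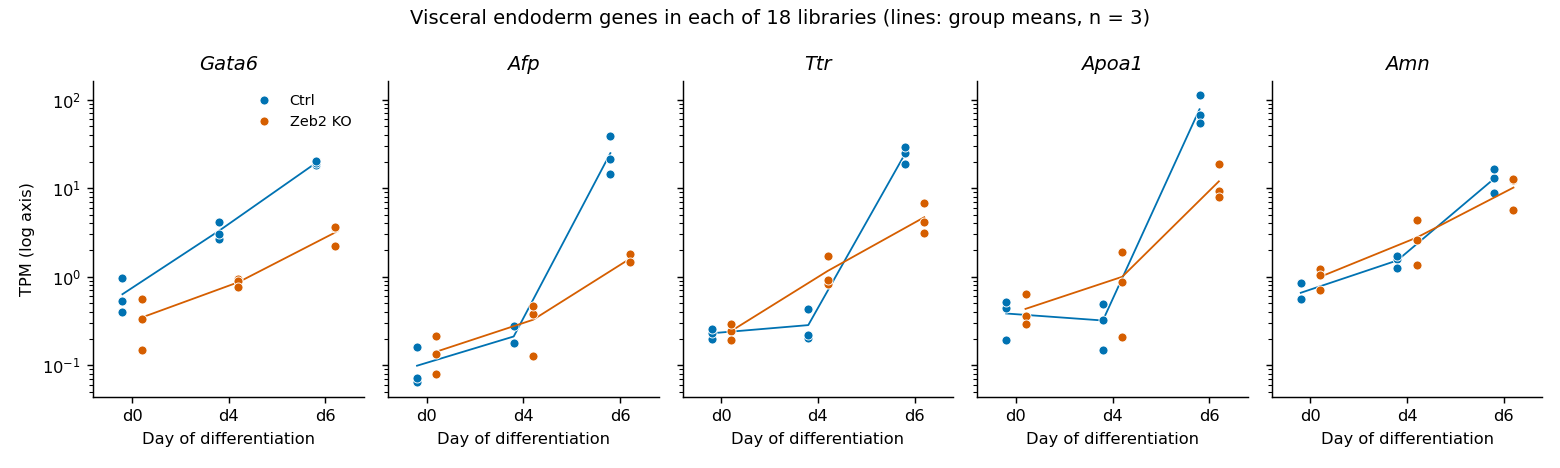
TPM of the 5 genes (log axis) by day in each of the 18 libraries, with Ctrl in blue, Zeb2 KO in orange and lines through the means of 3 libraries. All 5 genes were highest at d6, where every KO library was under every Ctrl library for all but Amn, and Gata6 was the gene with a clear level in Ctrl cells at d4 (2.69 to 4.18 TPM).

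In summed TPM, the 5 genes had 121 to 217 in the Ctrl libraries at d6 and 23.0 to 43.2 in the KO libraries, while at d4 the sums overlapped, at 4.92 to 6.33 and 4.15 to 9.25. At d6 4 of the 5 genes were called lower and none higher in KO cells, where 34.3% of all genes were called lower and 17.9% higher. At d4, 1 of the 5 was called lower (Gata6; 32.7% of all genes) and 1 higher (Ttr; 12.7%), and at d0 none of the 5 was called, in either direction. The 4 calls at d6 held under each of the other settings tried in which the gene was tested, and without any 1 of the 18 libraries.

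**Figure D2:**
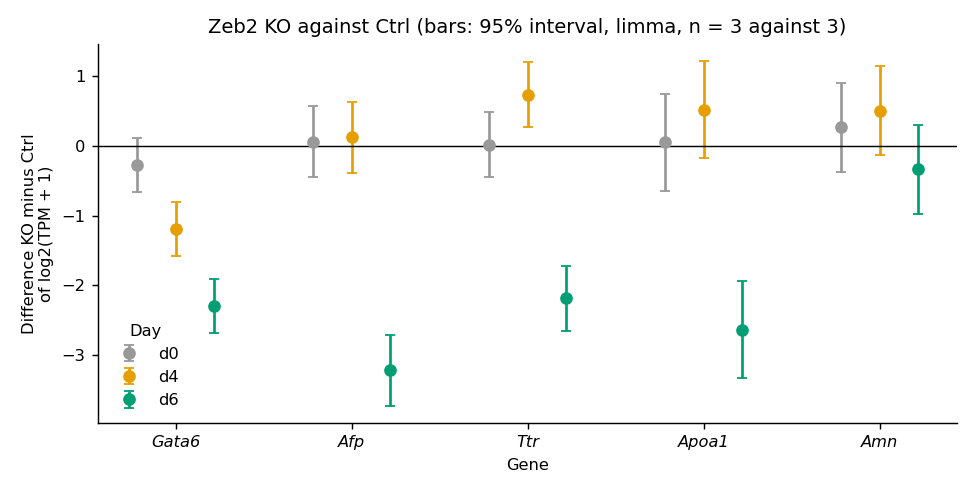
Difference between Zeb2 KO and Ctrl in log2(TPM + 1) for each gene at d0 (grey), d4 (orange) and d6 (green), with the 95% interval of limma (3 libraries against 3). At d6 the intervals of Gata6, Afp, Ttr and Apoa1 lie below 0, from -1.72 (the upper end for Ttr) down, and that of Amn crosses 0.

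The order of the levels changed with the genotype. In Ctrl cells at d6 Apoa1 (55.2 to 112 TPM) was above every library of the other genes, Afp (14.4 to 38.6), Ttr (19.0 to 29.5) and Gata6 (18.3 to 20.2) overlapped, and Amn (8.81 to 16.5) overlapped with Afp alone. In KO cells at d6 Apoa1 (7.87 to 18.7 TPM) and Amn (5.61 to 12.6) overlapped at the top, Ttr (3.10 to 6.81) overlapped with Amn and Gata6 (2.25 to 3.68), and Afp (1.48 to 1.80) was below all others. As a ratio to Ttr within the same library, a comparison chosen after the values were seen, Apoa1 was 2.70 to 3.78 in Ctrl and 1.88 to 2.98 in KO, and Gata6 0.683 to 1.01 and 0.539 to 1.14. Both ratios overlapped between the genotypes (exact two-sided permutation test of the log2 ratios, p = 0.5 and 0.6, 3 against 3 libraries). Afp made 0.757 to 1.31 times the TPM of Ttr in Ctrl cells and 0.265 to 0.480 times in KO cells, and Amn 0.357 to 0.689 times and 1.80 to 3.02 times. These ratios did not overlap, with p = 0.1 in the exact permutation test, the smallest that 3 against 3 libraries allow, and 0.2 after adjustment over the 4 ratios.

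Between d4 and d6, the time in retinoic acid, all 5 genes rose in both genotypes. In Ctrl cells the change in log2(TPM + 1) was 5.84 for Apoa1, 4.31 for Afp, 4.29 for Ttr, 2.41 for Amn and 2.25 for Gata6 (adjusted p between 2.72e-10 and 5.03e-06), where 22.6% of all genes rose. Ordered by the size of the rise among all 10965 genes, Apoa1 was at place 2, Afp at 9, Ttr at 11, Amn at 114 and Gata6 at 139. All 5 genes reached the 5 TPM of the filter in libraries of d6 alone, so that their rise and its place are in part set by it. The rise in KO cells that follows cannot be read against the share of all genes for the same reason. In KO cells the rise was 2.70 for Apoa1, 1.57 for Amn, 1.37 for Ttr, 1.14 for Gata6 and 0.97 for Afp (adjusted p between 4.53e-06 and 0.00279), where 21.5% of all genes rose. The rise of Afp in KO cells was no longer called without KO d4 replicate 2 or KO d6 replicate 2, with a change of 0.86 to 1.05 over the 18 libraries left out in turn, nor with a pseudocount of 5 (0.31, adjusted p = 0.165). On the log2(TPM + 1) scale Amn thus moved from the fourth to the second place among the 5 genes, but not by fold of mean TPM. By that measure Amn rose 3.67-fold in KO cells, below Apoa1, Afp (4.88-fold) and Ttr (4.05-fold) and just above Gata6 (3.64-fold). In Ctrl cells Amn (8.37-fold) was likewise below Apoa1, Afp and Ttr and above Gata6 (5.81-fold). By voom Amn (2.09) was also below Afp (2.79) and Ttr (2.23) in KO cells, so the move depends on the scale.

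Gata6 was the member called higher in Ctrl cells between d0 and d4 (1.40, adjusted p = 3.22e-06), in a comparison where 45.1% of all genes rose, and quantile normalization ended this call (0.56, adjusted p = 0.0184). Over the same days in KO cells Ttr was called (0.78, adjusted p = 0.00511), from 0 to 10 reads over the group, where 35.8% of all genes rose, and this call was lost without any 1 of the KO libraries at d0 or without KO d4 replicate 3 (0.60 to 0.88). Gata6 changed by 0.48 in KO cells (adjusted p = 0.0282) and Amn by 0.61 in Ctrl and 0.85 in KO cells (adjusted p = 0.0781 and 0.0212). Amn in KO cells was called without KO d4 replicate 2 or KO d6 replicate 1 (0.55 to 1.15 over the libraries left out).

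Over the whole course from d0 to d6 all 5 genes were called higher in Ctrl and in KO cells, as were 45.8% and 40.3% of all genes. The call of Afp in KO cells was lost with a pseudocount of 5 (0.36, adjusted p = 0.0834) and with quantile normalization (0.66, adjusted p = 0.0474).

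The difference between the genotypes in the change from d4 to d6 was tested as an interaction. KO cells rose less for Afp (-3.33, adjusted p = 3.02e-06), Apoa1 (-3.15, adjusted p = 1.24e-04), Ttr (-2.92, adjusted p = 4.56e-06) and Gata6 (-1.11, adjusted p = 0.00519), where 6.29% of all genes were called in this direction. Gata6, Afp and Ttr passed the filter through Ctrl at d6, so that their calls cannot be read against this share. For Amn the difference was -0.84 (adjusted p = 0.178). These calls depend on the method: by voom on the reads the call of Ttr held (-5.11, adjusted p = 2.96e-04) and those of Afp (-4.28, adjusted p = 0.0372), Apoa1 (-4.25, adjusted p = 0.0591) and Gata6 (-0.71, adjusted p = 0.319) did not. In mean TPM Gata6 rose 5.81-fold in Ctrl and 3.64-fold in KO cells between d4 and d6. The call of Gata6 was also lost without any 1 of 7 libraries (Ctrl d4 replicates 1 and 3, KO d4 replicates 1 and 2, Ctrl d6 replicates 2 and 3, and KO d6 replicate 3; -1.25 to -0.94 over the 18 left out in turn). Counted from d0, KO cells rose less by d6 for the same 4 genes (25.9% of all genes), but by voom none of these calls held (adjusted p = 0.102 for Gata6, 0.0489 for Afp, 0.0795 for Ttr and 0.138 for Apoa1). By d4 KO cells rose less for Gata6 (-0.92, adjusted p = 0.00781; 22.5% of all genes), a call that was lost in 5 of 8 other settings and without any 1 of 12 of the 18 libraries.

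The libraries of a group were not equally rich in these genes. Gata6 was even in Ctrl cells at d6 (coefficient of variation 4.77%, n = 3), while Afp varied by 50.0%, Apoa1 by 38.4%, Amn by 30.2% and Ttr by 21.7%. Ctrl d6 replicate 3 was the highest of its group for all 5 genes and for 6 of 8 other apolipoprotein and carrier genes. In KO cells at d6 replicate 2 was the highest for 4 of the 5 genes and for 6 of the 8, and Amn was highest in replicate 3. In KO cells at d4 replicate 3 was the highest for 4 of the 5, with Gata6 the exception. Summed keratin and other trophectoderm markers, 7 genes led by Krt8 and Krt18, were 1079, 1252 and 1656 TPM in Ctrl replicates 1, 2 and 3 at d6 and 1049, 1999 and 2049 TPM in the KO replicates, and their part in the spread was not tested.

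**Figure D3:**
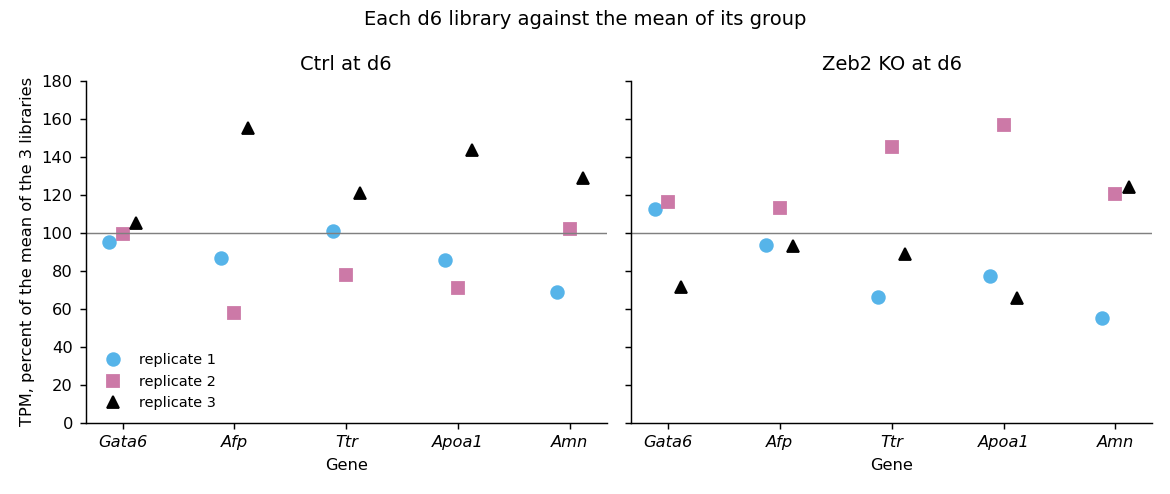
TPM of each of the 3 d6 libraries as a percent of the mean of its group, for Ctrl (left) and Zeb2 KO (right). Replicate 3 is the highest Ctrl library for every gene, from 105% of the mean for Gata6 to 155% for Afp, and replicate 2 is the highest KO library for all but Amn.

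Other genes of the endoderm give the setting of these 5. Of 13 listed transcription factors of the primitive and visceral endoderm, 9 were measured, and at d6 7 of them were called lower in KO cells, none higher and 2 not called, with a median difference of -1.44 (-0.14 over all genes, of which 34.3% were lower and 17.9% higher). Of the 7, 4 are in the table only through the Ctrl libraries at d6, among them Nr2f1 and Lhx1, so that their count is in part set by the authors' filter. Nr2f1 and Nr2f2, nuclear receptors that retinoic acid is known to induce and that other cells also use, differed most at d6. Nr2f1 was at 91.4 TPM in Ctrl and 0.257 TPM in KO cells (log2 difference -6.20, adjusted p = 1.97e-14). Nr2f2 was at 68.0 and 0.759 TPM (-5.29, adjusted p = 1.81e-13). Foxa1, a pioneer factor of endoderm, was at 13.2 TPM in Ctrl and 1.82 TPM in KO cells (-2.42). Lhx1, a factor of the anterior visceral endoderm, was at 8.88 and 2.20 TPM (-1.64). Gata4, the relative of Gata6, named after its values were seen, was 18.7 TPM in Ctrl and 6.17 TPM in KO cells at d6 (-1.44, adjusted p = 8.48e-06), a similar Ctrl level to the 19.2 TPM of Gata6. At d4 5 of the 9 were called lower, none higher, and 4 not called, with a median of -1.22. Of all genes 32.7% were lower and 12.7% higher at d4.

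The list of uptake and surface proteins moved in both directions. It also holds Rhox5, Fst and Spink1, which are neither. Of 12 listed, 10 were measured, and at d6 6 were called lower, 3 higher and 1 not called in KO cells, with a median of -0.86, where 34.3% of all genes were lower and 17.9% higher. Of the 6, 2 passed the filter only through Ctrl at d6, among them Pdgfra. Stra6, the receptor of Rbp4, was called lower (-2.58, 32.4 TPM in Ctrl and 4.58 TPM in KO), as were Pdgfra, a growth factor receptor of primitive endoderm (-1.91), Fst, which binds activin (-1.77), and Cubn (-1.58, 34.9 and 10.5 TPM, adjusted p = 1.85e-04). Cubn and Amn, which act as a complex, thus gave a called and an uncalled difference, and the difference between them was not tested. The 3 that were higher, named after their values were seen, were Lrp2, a receptor that works beside cubilin (0.83, 45.9 and 82.0 TPM), the tight junction gene Cldn6 (0.82) and the homeobox gene Rhox5 (0.97). Spink1, a secreted protease inhibitor, was at 64.4 TPM in Ctrl and 56.4 TPM in KO cells (-0.23, adjusted p = 0.634).

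Among the secreted carriers some genes were again lower and some higher in KO cells. Of 17 listed genes, 8 were measured, and at d6 5 were called lower, 2 higher and 1 not called, with a median of -1.13. Of all genes 34.3% were lower and 17.9% higher at d6. Of the 5, Apoa2 and Apob passed the filter only through Ctrl at d6. Rbp4, the retinol carrier that binds Ttr, was at 122 TPM in Ctrl and 10.2 TPM in KO cells (-3.48, adjusted p = 7.4e-09). Apoa2, the second protein of high-density lipoprotein, was at 9.91 and 1.03 TPM (-2.43). Apom was at 19.8 and 5.43 TPM (-1.68) and Apob at 11.5 and 4.47 TPM (-1.14). Apoe (454 and 895 TPM, 0.97) and Apoc1 (99.0 and 190 TPM, 0.94), named after their values were seen, were called higher, and both were already abundant at d0, unlike the 3 secreted members. At d4 1 of the 8 was called higher (12.7% of all genes) and 1 lower (32.7%), and Rbp4, Apoa2 and Apob differed by less than 0.12.

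Parietal endoderm, the other derivative of the primitive endoderm, lays down a basement membrane. All 10 measured genes of 11 listed, none of which needed the Ctrl libraries at d6 to pass the filter, were called lower in KO cells at d6 (median -1.80). At d4 8 of 10 were called lower and none higher (median -1.15), and at d0 5 of 10 were already called lower and none higher. Of all genes 34.3% were called lower and 17.9% higher at d6, 32.7% and 12.7% at d4, and 16.4% and 10.6% at d0. This list of parietal endoderm and basement membrane genes included Plat (-4.32, 113 and 4.73 TPM), a plasminogen activator, and the laminin gene Lama1 (-3.63, 162 and 12.1 TPM). It also included the collagen genes Col4a2 (-3.26) and Col4a1 (-3.13, 516 and 57.4 TPM). Some listed genes, named after their values were seen, were already abundant in Ctrl ESCs at d0: Lamc1 at 287, Nid1 at 229, Sparc at 153 and Serpinh1 at 152 TPM. Others were low there, such as Plat at 1.96 TPM. Whether parietal endoderm or other cells gave the lower levels in KO cells was not tested. Of 9 listed genes of definitive and anterior endoderm 7 were measured, of which 3 were lower and 3 higher in KO cells at d6 (median 0.48). Of the 3 lower, 2 passed the filter only through Ctrl at d6, among them Nepn. Nepn, a gut marker (-2.85), and Cxcr4, a chemokine receptor (-2.28), were lower. Trh, a hormone precursor (4.55, 57.3 and 1376 TPM), and Lefty1, a Nodal antagonist (2.20), were higher.

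**Figure D4:**
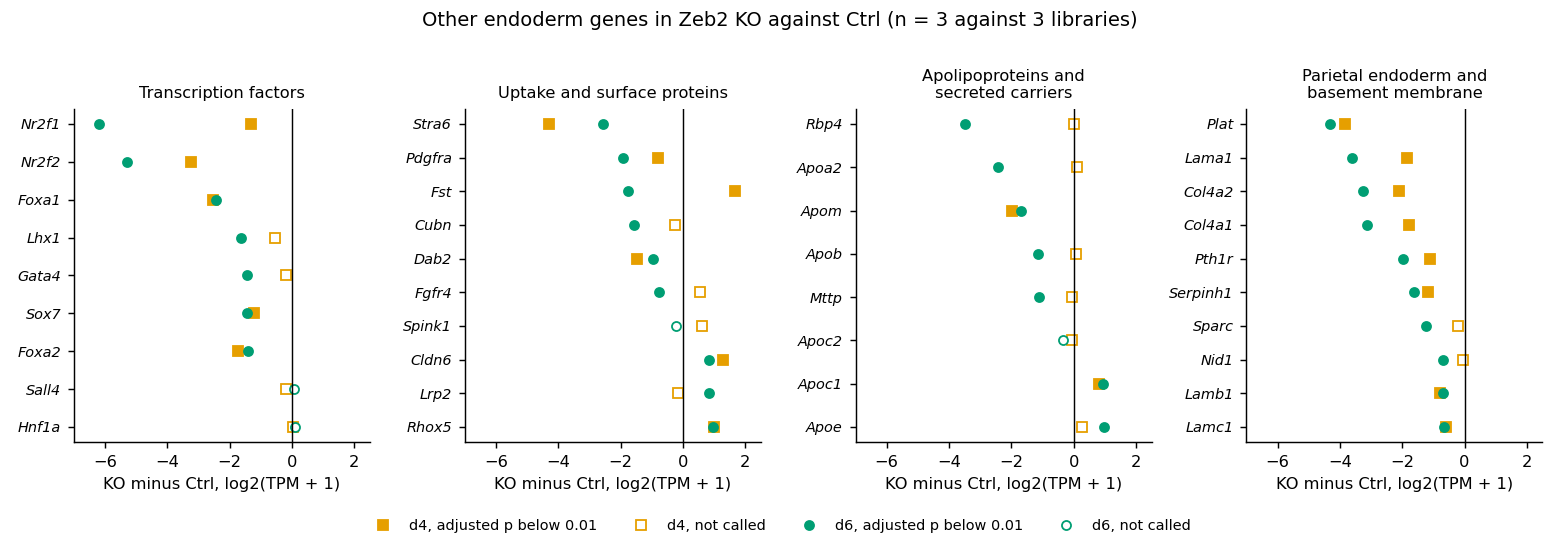
Difference between Zeb2 KO and Ctrl in log2(TPM + 1) at d4 (orange squares) and d6 (green circles) for 4 lists of other endoderm genes, filled where the adjusted p was below 0.01. At d6, 7 of the 9 transcription factors and every gene of the parietal and basement membrane list lie left of 0. Apoe, Apoc1, Lrp2, Cldn6 and Rhox5 lie right of 0. Of all genes 34.3% were called lower at d6, and 4 of the 7 factors are in the table only through the Ctrl libraries at d6.

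Markers of other cells differed between the same libraries, where 34.3% of all genes were lower and 17.9% higher in KO cells at d6. Of those counted here, 1 neural, 2 mesoderm, 3 trophectoderm and 2 fibroblast genes would not have passed the filter without the Ctrl libraries at d6. All 11 retinoic acid response genes were called lower in KO cells at d4 (median -3.40; 32.7% of all genes) and d6 (median -4.75). Their summed level at d6 was 6412 to 7454 TPM in Ctrl and 114 to 154 TPM in KO libraries. Among them Crabp1 and Crabp2, which bind retinoic acid in the cell, differed by -6.49 and -5.57, the hindbrain gene Hoxb1 by -5.94 and the retinoic acid-degrading enzyme Cyp26b1 by -5.23. All 7 neural markers were lower at d6 (median -2.33; 420 to 459 and 95.5 to 116 TPM in sum), Pax6 (-4.29) and Neurog1 (-4.13) most. All 5 postimplantation epiblast markers were higher (median 3.06; 134 to 144 and 910 to 1047 TPM), led by Fgf5 (4.89) and Otx2 (4.00). Of 7 trophectoderm markers 4 were lower and none higher, of 4 mesoderm markers 3 were lower, among them Meox1 (-6.47), and of 7 naive pluripotency markers 4 were higher and 1 was lower. Of 3 fibroblast genes Col1a1 and Col1a2 were lower and Thy1 higher (26.3 to 32.7 TPM in sum in Ctrl and 32.7 to 44.8 TPM in KO libraries at d6). The part of these cells in the differences of the 5 genes was not tested.

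For each of the 5 genes, the 3 genes most like it were sought by Pearson correlation of log2(TPM + 1) over the 18 libraries, which share 6 groups and so are no independent points. Ttr and Apoa1 were each other's most similar gene (r = 0.99), followed for Ttr by Apob and Afp and for Apoa1 by Hand1, a transcription factor, and Prss12, a serine protease (r = 0.96 to 0.97). Afp was most like Hkdc1, a hexokinase relative, Spp2, a secreted phosphoprotein, and Serpinf2, the inhibitor of plasmin (r = 0.98 for each), which measured 13.5, 8.99 and 10.7 TPM in Ctrl and 1.52, 0.634 and 0.517 TPM in KO cells at d6. Gata6 was most like the serine protease genes Tmprss2 and Prss23 and the membrane protein gene Heg1 (r = 0.98 to 0.99), and like Gata6 these were already above their d0 level in Ctrl cells at d4, at 3.51, 3.17 and 2.87 TPM. Amn was most like Clic1, Bckdk and Spink1 (r = 0.96 to 0.97), which differ little between the genotypes at d6 (312 and 301, 91.8 and 80.1, and 64.4 and 56.4 TPM in Ctrl and KO cells).

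The genes around the members had small median differences at d6. Within 1 Mb of their starts, the median log2 difference between KO and Ctrl at d6 was -0.36 for the 7 genes next to Gata6, -0.38 for the 5 next to Afp, -0.11 for the 11 next to Ttr, -0.33 for the 11 next to Apoa1 and -0.15 for the 27 next to Amn, against -0.14 over all genes. At d4 4 of the 7 genes next to Gata6 and 7 of the 11 next to Apoa1 were called lower (32.7% of all genes), with medians of -0.31 and -0.40. The medians next to Afp and Ttr were 0.27 and -0.18 at d4, against -0.16 over all genes. The surroundings of Amn differed at d0. There 15 of its 27 neighbours were called higher in KO cells and 2 lower (10.6% and 16.4% of all genes), with a median of 0.42, the 439 measured genes of chromosome 12 had a median of 0.36, and all genes had -0.07. Amn itself was at 0.26 at d0, which was not called, and whether it shares this shift was not tested. By d4 the medians of neighbours and chromosome were -0.14 and -0.18, and Amn was at 0.50, again not called.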

How the data were processed

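Per the labels and the methods, the authors aligned single reads of 36 bp to GRCm38 (TopHat2 2.0.13), counted reads per gene by featureCounts 1.4.6, and deposited TPM values. Short noncoding genes, genes without 5 TPM in at least 3 samples and the 20% of genes varying least had been taken out by the authors. A deposited score of variability per gene was not used. Of 11046 entries, 81 repeats were dropped, leaving 10965 genes.

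Differences came from limma 3.58.1 (R 4.3.3; lmFit, contrasts.fit and eBayes, trend on) fitted to log2(TPM + 1) in all 18 libraries, the mean of each of the 6 groups being a term, with p adjusted by Benjamini-Hochberg across the 10965 genes. A change is called at an adjusted p below 0.01. Adding 1 understates fold changes of low genes. Whole reads (all genes, tolerance 1e-05) gave a depth of 9622622 to 15617675 reads and the input of voom. The recovery of reads and the limma test of KO against Ctrl at d6 were tested on simulated data. Tables and plots were made in Python 3.11.15 (numpy 2.4.6, pandas 2.3.3, matplotlib 3.10.9). Alternatives were pseudocounts of 0.1 and 5, a floor of 10 on the mean TPM, median-ratio or quantile scaling, the compared groups alone, no trend, a replicate block, voom and each library left out.

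The 5 genes and all lists were chosen with earlier results of these data known. Other genes named are Zeb2, the 3 genes most correlated with each member and, from each list, up to 4 called genes with the largest difference at d6. Lists have counts and medians but no test, and 1 listed gene is not reported here. Positions are from GENCODE M21, promoters from RefSeq.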

Additional observations from a re-analysis of the deposited data

Results flagged for a closer look

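The change over days differed between KO and Ctrl cells for 4 of the 5 genes, by the interaction test of limma at an adjusted p below 0.01. From d4 to d6 the change in KO minus that in Ctrl cells was -3.33 for Afp, -3.15 for Apoa1, -2.92 for Ttr and -1.11 for Gata6 on the log2(TPM + 1) scale. From d0 to d6 it was -3.27 for Afp, -2.68 for Apoa1, -2.20 for Ttr and -2.02 for Gata6. By voom none of these 4 calls from d0 to d6 held (adjusted p = 0.0489, 0.138, 0.0795 and 0.102), and of those from d4 to d6 that of Ttr alone did. From d0 to d4 Gata6 alone was called, at -0.92 (adjusted p = 0.00781), and this call was lost without any of 12 single libraries. Ttr had 0.72 over the same days, in the other direction (adjusted p = 0.0644). Of all genes, 6.29% were called as rising less in KO cells from d4 to d6, 25.9% from d0 to d6 and 22.5% from d0 to d4. Gata6, Afp and Ttr passed the filter through Ctrl at d6, so that their calls by d6 cannot be read against these shares. The comparisons share libraries, so that the values of a gene are not independent of each other. Amn was called in none of the 3 (-0.84 from d4 to d6, -0.60 from d0 to d6 and 0.24 from d0 to d4, adjusted p = 0.178, 0.243 and 0.674).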

How the results depend on the processing

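Reads limit the values before d6, where Afp, Ttr and Apoa1 had 0 to 8 reads in a library. With 3 libraries a group, a miss is no proof of equal levels. Of 60 results (5 genes and 12 comparisons), 32 kept direction and call under all 27 settings, 18 gained or lost a call and 12 turned their direction under a setting, called neither there nor in the report (2 results did both). The 4 calls at d6 between KO and Ctrl were among the 32 that kept direction and call. A mean TPM of at least 10 left Apoa1 alone of the 5, whose results held, so the other 4 were not run there. The cause of the changes below was not tested. Replicate numbers were not taken to pair libraries: deviations of KO and Ctrl libraries of a day and number correlated at -0.0773 to 0.231 (9 pairs), not all above 0.1. Over all groups the median was 0.15 for the same number (45 pairs) and -0.055 for different numbers (90 pairs), and 15 of 18 libraries, all 12 of numbers 1 and 2 and 3 of 6 of number 3, correlated best with their own number, a hint from the data and not from the design. With the replicate block Afp differed by -3.21 at d6 (adjusted p = 3.94e-08), and the block changed no call.

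Calls lost by voom were the changes of KO minus Ctrl from d4 to d6 for Gata6 (-0.71), Afp (-4.28) and Apoa1 (-4.25), from d0 to d6 for Gata6 (-1.38), Afp (-4.61), Ttr (-2.45) and Apoa1 (-2.95), from d0 to d4 for Gata6 (-0.67), Afp in KO from d4 to d6 (2.79) and Ttr at d4 (2.76). A pseudocount of 0.1 ended Gata6 from d0 to d4 (-1.04) and d4 to d6 (-0.80) and added Gata6 (1.22) and Amn (1.27) in KO from d0 to d4 and Ttr in the change of KO minus Ctrl (1.65). A pseudocount of 5 ended Afp in KO from d4 to d6 (0.31) and d0 to d6 (0.36), Ttr at d4 (0.22) and Ttr in KO from d0 to d4 (0.23). Quantile normalization ended Gata6 from d0 to d4 in Ctrl (0.56) and as KO minus Ctrl (-0.59), Afp in KO from d4 to d6 (0.76) and d0 to d6 (0.66) and Ttr in KO from d0 to d4 (0.26). Median-ratio rescaling ended Gata6 from d0 to d4 as KO minus Ctrl (-0.78). Fitting the groups compared alone ended the same result of Gata6 (-0.92), Ttr at d4 (0.73) and Amn in KO from d4 to d6 (1.57), and added Amn in Ctrl from d0 to d4 (0.61), which makes 2 members called there.

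Quantile normalization turned Gata6 in KO from d0 to d4 (-0.037), Afp in Ctrl (-0.15) and KO (-0.095) from d0 to d4, Ttr in Ctrl (-0.46), Apoa1 in KO (-0.23) and Amn in Ctrl (-0.26) over the same days. Median-ratio rescaling turned Ttr in Ctrl from d0 to d4 (-0.0024), and voom turned KO minus Ctrl in the change of Afp from d0 to d4 (-0.33).

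Leaving out 1 library turned results near 0 with no call: Ttr (-0.012 to 0.043) and Apoa1 (-0.053 to 0.12) at d0, Amn at d6 (-0.57 to 2.00e-04), Ttr (-0.023 to 0.10) and Apoa1 (-0.17 to 0.027) in Ctrl from d0 to d4, and KO minus Ctrl in the change from d0 to d4 of Afp (-0.013 to 0.18) and Amn (-0.059 to 0.54). It changed the call of 6 results: KO minus Ctrl in the change of Gata6 from d0 to d4 (-1.06 to -0.78) and d4 to d6 (-1.25 to -0.94), Afp in KO from d4 to d6 (0.86 to 1.05), Ttr at d4 (0.55 to 0.84), Ttr in KO from d0 to d4 (0.60 to 0.88) and Amn in KO from d0 to d4 (0.55 to 1.15).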
